A study of Rattus norvegicus with 93 samples.

Results

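Cdkn1a, Mdm2 and Ccng1, genes of cell cycle arrest and feedback in the p53 response, were followed in bone marrow of rats that had received topotecan, oxaliplatin or both. Members were taken as the probe sets that the array annotation gives to 1 of these symbols alone. They comprise 6 of the 12532 probe sets tested, 2 for Cdkn1a, 3 for Mdm2 and 1 for Ccng1, and 3 of the 7810 genes with a probe set of 1 symbol. Values are those of the probe set with the highest mean signal of each gene across the 93 arrays, 1388674_at for Cdkn1a, 1384427_at for Mdm2 and 1367764_at for Ccng1. In the RefSeq annotation of the rat genome (GRCr8) Cdkn1a lies at chr20:7150820-7161373, Mdm2 at chr7:55176558-55201757 and Ccng1 at chr10:25678503-25684876.

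Left femur marrow of male Sprague-Dawley rats, 8 weeks old, was collected 1, 6 or 24 h after the end of dosing, with 1 array per rat. Each rat received 30 min infusions of 2 solutions, and groups are named in the order of infusion. Topotecan (4.7 mg/kg) was given alone in topotecan/D5W and D5W/topotecan rats, oxaliplatin (15 mg/kg) alone in oxaliplatin/NaCl and NaCl/oxaliplatin rats, and both drugs in topotecan/oxaliplatin and oxaliplatin/topotecan rats. Vehicle rats received both vehicles, saline (NaCl) and dextrose in water (D5W), as NaCl/D5W or D5W/NaCl. Every group at each time held 4 rats, except for 3 in topotecan/D5W at 24 h, in D5W/NaCl at 24 h (RNA of 1 rat each was too degraded) and in oxaliplatin/NaCl at 6 h (the authors removed 1 array as an outlier). All rats had a femoral vein cannula.

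The transcription factor p53 is stabilised when DNA is damaged and then switches on its target genes. Cdkn1a encodes p21, an inhibitor of cyclin-dependent kinases that halts the cell cycle. Mdm2 encodes the ubiquitin ligase that marks p53 for degradation, so that p53 induces its own inhibitor. Ccng1 encodes cyclin G1, which in human and mouse cells binds protein phosphatase 2A and Mdm2 and also acts back on p53. Topotecan traps topoisomerase I on DNA, and oxaliplatin is a platinum compound that binds and cross-links DNA. Proliferating marrow is a main site of toxicity of both drugs.

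Since p53 binds DNA directly, the promoter windows of the 3 genes in RefSeq (GRCr8, 250 bases before to 50 after the annotated start) were searched on both strands for the consensus p53 response element. An element was taken as a pair of p53 half-sites of 10 bases, up to 13 bases apart, with at most 1 mismatch over both and the C and G of each core kept. Cdkn1a and Ccng1 had the same calls against vehicle in every treatment and time with the probe sets and fits reported. The windows of both genes each held such an element, shown here in capitals, and a link between element and calls was not tested.
Cdkn1a: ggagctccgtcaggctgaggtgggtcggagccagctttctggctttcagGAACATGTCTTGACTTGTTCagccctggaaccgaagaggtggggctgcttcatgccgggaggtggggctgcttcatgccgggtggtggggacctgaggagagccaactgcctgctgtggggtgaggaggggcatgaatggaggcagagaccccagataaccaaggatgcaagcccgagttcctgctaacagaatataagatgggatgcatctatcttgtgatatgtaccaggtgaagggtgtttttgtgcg
Ccng1: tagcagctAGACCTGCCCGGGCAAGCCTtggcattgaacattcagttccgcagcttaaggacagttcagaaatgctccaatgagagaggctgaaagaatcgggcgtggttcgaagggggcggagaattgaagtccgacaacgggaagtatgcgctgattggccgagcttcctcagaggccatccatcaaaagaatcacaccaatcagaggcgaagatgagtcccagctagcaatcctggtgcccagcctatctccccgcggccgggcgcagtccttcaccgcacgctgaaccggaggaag
The Cdkn1a window is chr20:7150682-7150981 on the plus strand, with the element at chr20:7150731-7150750, bases -201 to -182 from the start. The Ccng1 window is chr10:25684827-25685126 on the minus strand, with the element at chr10:25685099-25685118, bases -242 to -223. The Cdkn1a window held a second matching pair, not shown, which shares the half-site without mismatch. In both elements the half-sites adjoined each other and 1 of them had 1 mismatch. Of 33469 rat promoter windows, 189 (0.565%) held such an element. No element was found in the Mdm2 window (chr7:55200742-55201041, minus strand), and in human and mouse Mdm2 the known p53 elements lie in the first intron. For Cdkn1a and Mdm2 the start used for the window lies inside the annotated span of the gene. A match of letters does not show binding.

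The signals were log2 values with array medians of 8.79 to 9.30, and their precision was set by the number of rats. Treated groups were compared with the vehicle group given the same order of vehicles at the same time in limma, with adjustment by Benjamini-Hochberg over the 12532 probe sets, and a difference passed at an adjusted p under 0.01. Marrow of topotecan/D5W, NaCl/oxaliplatin and topotecan/oxaliplatin rats was set against NaCl/D5W, and that of the other 3 treatments against D5W/NaCl, so treatments share vehicle rats. The sample codes in the labels differ in their column number between some groups and their vehicle rats, namely both combinations, NaCl/oxaliplatin and D5W/topotecan at 1 and 6 h, and oxaliplatin/topotecan and D5W/topotecan at 24 h. There, code column and treatment cannot be told apart. The same holds for each single drug given first against second, at every time. It also holds for topotecan/oxaliplatin against topotecan/D5W at 1 and 6 h, and for oxaliplatin/topotecan against oxaliplatin/NaCl at 1, 6 and 24 h. At 24 h the mean signal over 8 erythroid markers was 10.80 to 12.44 in treated arrays and 13.35 to 13.65 in vehicle arrays, and 6 of the 8 fell in every treatment. The means over stromal and osteoblast markers (11.35 to 12.36 in treated arrays, 10.31 to 10.89 in vehicle arrays), adipocyte markers (11.16 to 12.50, against 10.13 to 10.71) and T and NK cell markers (8.59 to 9.48, against 7.73 to 8.10) were higher at 24 h. At 6 h the erythroid (12.65 to 13.39, against 13.41 to 13.64) and adipocyte means (10.78 to 11.67, against 10.01 to 10.51) were already apart, and at 1 h the ranges of all these means overlapped. In marrow, fewer cells of a type and less RNA per cell cannot be told apart, and the part of these shifts in the values of the 3 genes was not tested. Signal of 11 skeletal muscle markers was high in 6 treated arrays (8.03 to 10.44, against 7.45 at most in the other arrays).

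Without drug the 3 genes were close to level. None of the 9 differences between D5W/NaCl and NaCl/D5W rats or of the 12 between 6 or 24 h and 1 h within a vehicle group passed in limma (1 of each had an unadjusted p under 0.05). The largest were those of Ccng1 in D5W/NaCl rats at 6 h, 0.62 above NaCl/D5W (limma adjusted p = 0.616) and 0.66 above 1 h (limma adjusted p = 0.0139). There, rat 15 was highest of its group for all 3 genes, with log2 signals of 8.59 for Cdkn1a, 10.83 for Mdm2 and 11.60 for Ccng1.

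Cdkn1a rose in 5 of the 6 treatments at 1 h and in all 6 at 6 and 24 h. At 24 h its log2 change from vehicle was 2.51 to 3.17 in the 4 treatments with oxaliplatin, and 0.92 and 1.07 after topotecan alone. At 1 h its log2 signal was 10.56, 10.68, 10.34 and 11.34 in topotecan/D5W rats, 11.27, 10.48, 10.54 and 10.72 in topotecan/oxaliplatin rats and 7.74, 9.06, 8.97 and 8.66 in NaCl/oxaliplatin rats, against 7.78, 7.35, 7.96 and 7.76 in NaCl/D5W rats. It was 10.49, 10.02, 10.09 and 11.34 in D5W/topotecan rats, 9.84, 10.16, 9.49 and 9.50 in oxaliplatin/NaCl rats and 11.07, 11.15, 10.71 and 10.85 in oxaliplatin/topotecan rats, against 7.69, 8.01, 7.87 and 7.67 in D5W/NaCl rats. Only the NaCl/oxaliplatin rats overlapped their vehicle rats, through rat 73 at 7.74. All lists of 6 values from here on give topotecan alone (topotecan/D5W, then D5W/topotecan), oxaliplatin alone (oxaliplatin/NaCl, then NaCl/oxaliplatin) and the combinations (topotecan/oxaliplatin, then oxaliplatin/topotecan). The log2 change of Cdkn1a from vehicle at 1 h was 3.02, 2.68, 1.94, 0.90, 3.04 and 3.14 (SE 0.23, 0.25, 0.25, 0.23, 0.23 and 0.25). All passed but that of NaCl/oxaliplatin (limma adjusted p = 0.0508), while 9.18%, 7.67%, 0.575%, 0.136%, 9.77% and 7.21% of all probe sets were higher in these comparisons, and the groups did not overlap, with treated rats above, in 11.9%, 12.9%, 4.84%, 1.18%, 11.0% and 12.0%. The change in topotecan/D5W corresponded to 8.09-fold and was the 3rd highest of the 12532 probe sets.

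At 6 h the Cdkn1a signal was 9.50, 9.29, 9.27 and 9.50 in topotecan/D5W rats, 10.14, 9.96, 9.65 and 10.16 in topotecan/oxaliplatin rats and 9.62, 9.92, 9.78 and 9.64 in NaCl/oxaliplatin rats, against 7.99, 7.92, 7.25 and 7.07 in NaCl/D5W rats. In D5W/topotecan rats it was 9.24, 9.52, 9.88 and 9.53, in oxaliplatin/NaCl rats 9.80, 9.42 and 9.36 and in oxaliplatin/topotecan rats 10.16, 9.76, 10.12 and 10.76, against 8.59, 8.12, 7.60 and 7.30 in D5W/NaCl rats. Every treated rat lay above every vehicle rat of its comparison. The log2 changes at 6 h were 1.83, 1.64, 1.62, 2.18, 2.42 and 2.30 (SE 0.23, 0.25, 0.27, 0.23, 0.23 and 0.25), and all 6 passed (higher among all probe sets: 15.1%, 14.1%, 3.78%, 5.54%, 17.0% and 14.2%, with treated rats all above vehicle rats in 16.6%, 19.7%, 14.2%, 11.4%, 18.6% and 16.5%). At 24 h Cdkn1a stood at 8.90, 8.07 and 8.40 in topotecan/D5W rats and 8.94, 8.78, 9.06 and 8.19 in D5W/topotecan rats, while it was 10.47, 10.76, 9.95 and 10.15 in oxaliplatin/NaCl rats and 10.12, 9.91, 9.78 and 10.38 in NaCl/oxaliplatin rats. The combinations had the highest means, with rats at 10.78, 10.77, 10.95 and 10.35 in topotecan/oxaliplatin rats and 10.91, 11.00, 10.31 and 10.48 in oxaliplatin/topotecan rats. NaCl/D5W rats stood at 7.83, 7.42, 7.23 and 7.70 and D5W/NaCl rats at 7.72, 7.59 and 7.70, below every treated rat. The log2 changes at 24 h were 0.92, 1.07, 2.66, 2.51, 3.17 and 3.00 (SE 0.25, 0.27, 0.27, 0.23, 0.23 and 0.27), all past the threshold (higher among all probe sets: 16.1%, 18.1%, 19.6%, 24.9%, 25.9% and 21.8%, with treated rats all above vehicle rats in 25.7%, 21.5%, 26.1%, 28.6%, 26.9% and 26.3%). The rise after topotecan/D5W at 24 h was lost without rat 11 of the vehicle or rat 29 of the treated group (0.69 to 0.81, limma adjusted p 0.0150 to 0.0508).

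**Figure D1:**
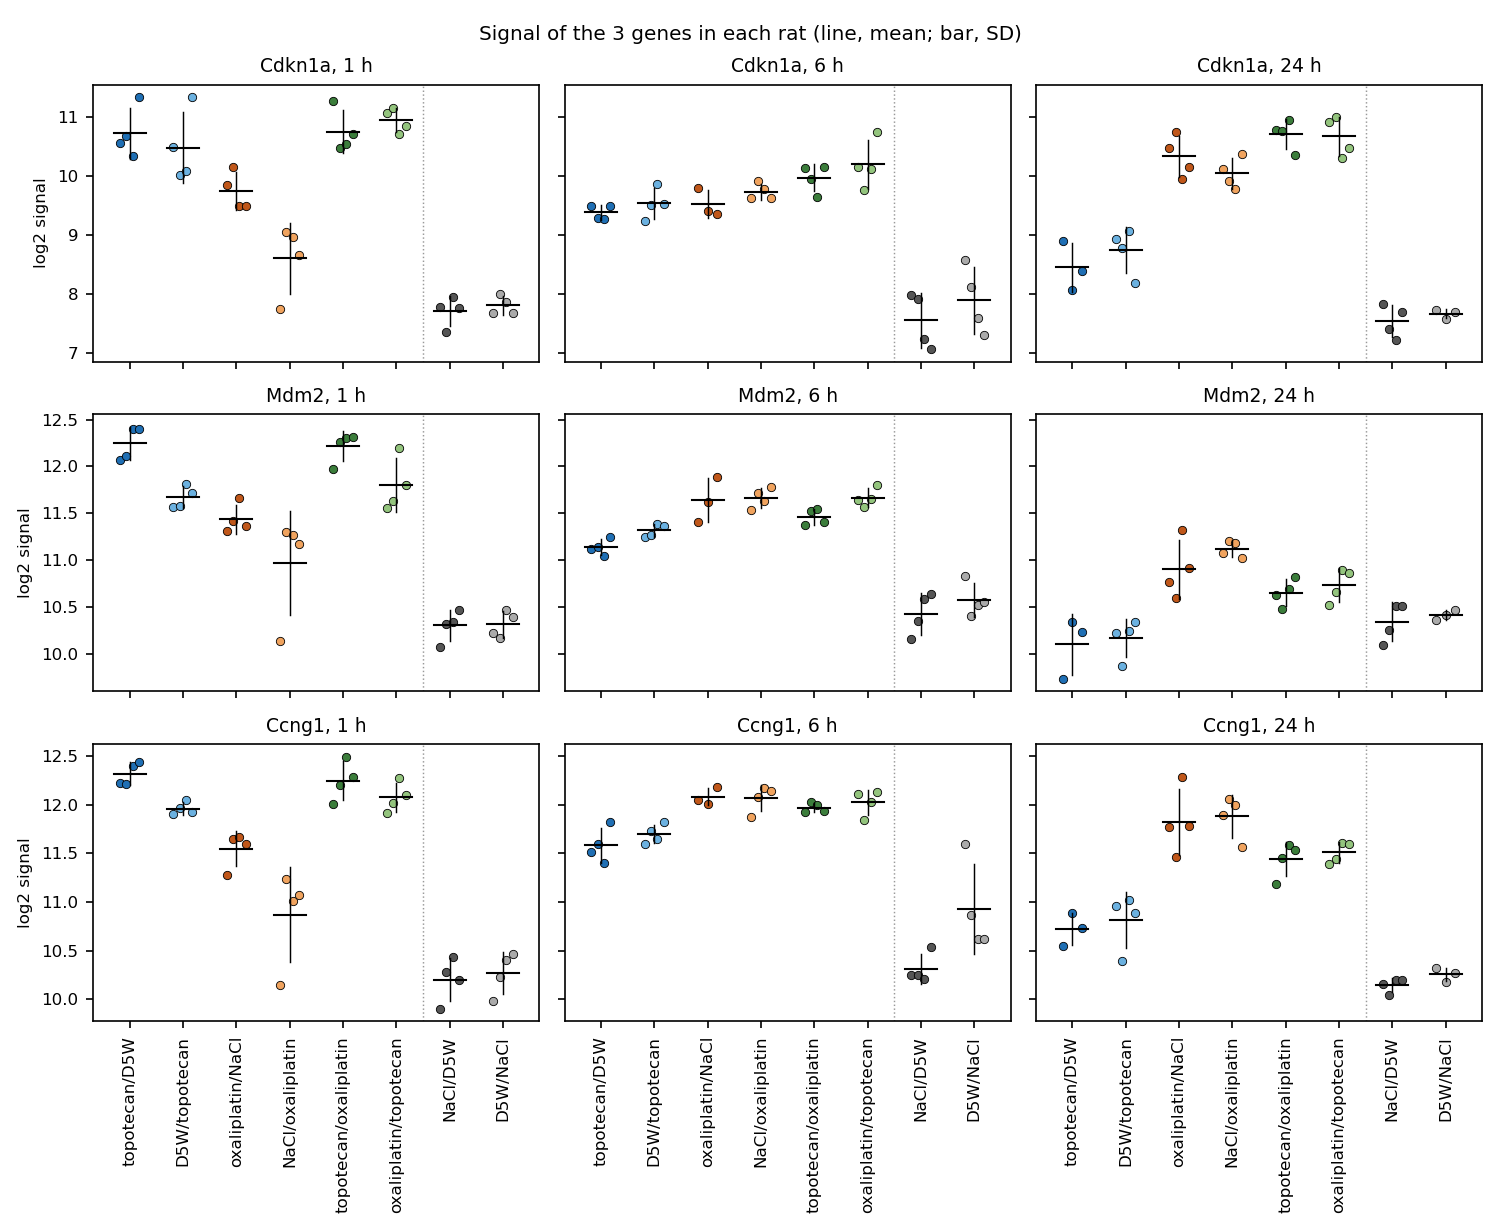
Log2 signal (vertical axis) of Cdkn1a, Mdm2 and Ccng1 in each rat (points) of the 6 treatments and, right of the dotted line, the 2 vehicle groups at 1, 6 and 24 h, with the group mean (line) and SD (bar). Cdkn1a of both combinations is near 11 at 1 and 24 h, and at 24 h no rat given topotecan alone lies above the highest vehicle rat for Mdm2. Axes of different genes are not comparable, since each gene is read by its own probe set.

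Mdm2, the feedback inhibitor of p53, rose in the same 5 treatments at 1 h, in all 6 at 6 h, and in oxaliplatin/NaCl and NaCl/oxaliplatin at 24 h. Per treatment, 0.136% to 9.77% of all probe sets were higher at 1 h, 3.78% to 17.0% at 6 h and 16.1% to 25.9% at 24 h. At 24 h another Mdm2 probe set, 1383288_at, also rose in both combinations (0.45 and 0.44), so the number of treatments called there depends on the probe set. At 1 h its log2 signal was 12.07, 12.12, 12.40 and 12.40 in topotecan/D5W rats, 11.98, 12.26, 12.31 and 12.32 in topotecan/oxaliplatin rats and 10.14, 11.30, 11.26 and 11.17 in NaCl/oxaliplatin rats, against 10.07, 10.32, 10.34 and 10.47 in NaCl/D5W rats. It was 11.57, 11.58, 11.81 and 11.72 in D5W/topotecan rats, 11.31, 11.42, 11.66 and 11.37 in oxaliplatin/NaCl rats and 11.55, 11.63, 12.20 and 11.80 in oxaliplatin/topotecan rats, against 10.22, 10.17, 10.47 and 10.39 in D5W/NaCl rats. Rat 73 was again the exception, at 10.14 where the other NaCl/oxaliplatin rats stood between 11.17 and 11.30. The log2 changes at 1 h were 1.95, 1.36, 1.12, 0.67, 1.92 and 1.49 (SE 0.16, 0.13, 0.13, 0.16, 0.16 and 0.13), and that of NaCl/oxaliplatin did not pass (limma adjusted p = 0.0303).

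At 6 h the Mdm2 signal was 11.12, 11.14, 11.04 and 11.24 in topotecan/D5W rats, 11.38, 11.53, 11.55 and 11.40 in topotecan/oxaliplatin rats and 11.53, 11.72, 11.63 and 11.78 in NaCl/oxaliplatin rats, against 10.15, 10.35, 10.58 and 10.64 in NaCl/D5W rats. It was 11.25, 11.27, 11.38 and 11.37 in D5W/topotecan rats, 11.41, 11.62 and 11.88 in oxaliplatin/NaCl rats and 11.64, 11.57, 11.65 and 11.81 in oxaliplatin/topotecan rats, against 10.83, 10.40, 10.52 and 10.55 in D5W/NaCl rats. No group overlapped its vehicle rats, and per treatment 11.4% to 19.7% of all probe sets likewise had every treated rat above every vehicle rat. The log2 changes were 0.71, 0.74, 1.06, 1.24, 1.03 and 1.09 (SE 0.16, 0.13, 0.14, 0.16, 0.16 and 0.13), and all passed. At 24 h the topotecan/D5W rats had 9.73, 10.34 and 10.23 and the NaCl/oxaliplatin rats 11.07, 11.21, 11.18 and 11.02, with 10.62, 10.47, 10.70 and 10.82 in topotecan/oxaliplatin rats, against 10.09, 10.25, 10.51 and 10.51 in NaCl/D5W rats. D5W/topotecan rats had 10.22, 9.87, 10.24 and 10.34, oxaliplatin/NaCl rats 10.77, 10.59, 11.32 and 10.91 and oxaliplatin/topotecan rats 10.52, 10.66, 10.90 and 10.86, against 10.36, 10.41 and 10.47 in D5W/NaCl rats. Every rat given topotecan alone lay below the highest vehicle rat of its comparison, and those of D5W/topotecan all lay below their vehicle rats, as 21.0% of all probe sets did. In both treatments of oxaliplatin alone and in oxaliplatin/topotecan all rats lay above their vehicle rats, as 26.1%, 28.6% and 26.3% of all probe sets did. The log2 changes at 24 h were -0.24, -0.25, 0.49, 0.78, 0.31 and 0.32 (SE 0.17, 0.14, 0.14, 0.16, 0.16 and 0.14). Those of oxaliplatin/NaCl and NaCl/oxaliplatin passed (limma adjusted p = 0.00386 and 4.88e-05), and the others had adjusted p-values of 0.247, 0.151, 0.0763 and 0.0482. The oxaliplatin/NaCl call was lost without rat 17 or 18 of the vehicle or rat 47 of the treated group (0.34 to 0.48, limma adjusted p 0.0130 to 0.0345).

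Ccng1, the cyclin G1 gene, had the same calls as Cdkn1a in the fits reported, with 5 treatments higher at 1 h and 6 at both later times. Per treatment, 0.136% to 9.77% of all probe sets were higher at 1 h, 3.78% to 17.0% at 6 h and 16.1% to 25.9% at 24 h. The log2 signal of Ccng1 at 1 h was 12.23, 12.21, 12.40 and 12.44 in topotecan/D5W rats, 12.01, 12.21, 12.49 and 12.28 in topotecan/oxaliplatin rats and 10.15, 11.24, 11.01 and 11.07 in NaCl/oxaliplatin rats, against 9.90, 10.28, 10.44 and 10.19 in NaCl/D5W rats. It was 11.90, 11.96, 12.05 and 11.93 in D5W/topotecan rats, 11.28, 11.65, 11.67 and 11.59 in oxaliplatin/NaCl rats and 11.92, 12.02, 12.27 and 12.10 in oxaliplatin/topotecan rats, against 9.98, 10.23, 10.41 and 10.47 in D5W/NaCl rats. Rat 73 lay among its vehicle rats for this gene also, at 10.15. The log2 changes at 1 h were 2.12, 1.69, 1.28, 0.66, 2.05 and 1.81 (SE 0.15, 0.15, 0.15, 0.15, 0.15 and 0.15), all past the threshold except NaCl/oxaliplatin (limma adjusted p = 0.0197). Without rat 73 all 3 genes passed in NaCl/oxaliplatin at 1 h, with log2 changes of 1.18 for Cdkn1a, 0.94 for Mdm2 and 0.90 for Ccng1 (limma adjusted p = 0.00126, 2.89e-06 and 3.95e-06). With all rats, Mdm2 and Ccng1 passed there after a second quantile normalization (limma adjusted p = 0.00768 and 0.00653). They also passed with the group of code columns as a block (limma adjusted p = 0.00988 and 0.00976) and with vehicle groups pooled (limma adjusted p = 6.44e-04 and 0.00830). Cdkn1a did not pass in these settings.

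At 6 h Ccng1 stood at 11.51, 11.60, 11.40 and 11.82 in topotecan/D5W rats, 11.93, 12.02, 11.99 and 11.94 in topotecan/oxaliplatin rats and 11.88, 12.08, 12.18 and 12.15 in NaCl/oxaliplatin rats, against 10.25, 10.25, 10.21 and 10.53 in NaCl/D5W rats. It was 11.60, 11.73, 11.65 and 11.82 in D5W/topotecan rats, 12.05, 12.01 and 12.18 in oxaliplatin/NaCl rats and 12.11, 11.84, 12.03 and 12.13 in oxaliplatin/topotecan rats, against 11.60, 10.86, 10.62 and 10.62 in D5W/NaCl rats. D5W/topotecan overlapped its vehicle rats through rat 15. The log2 changes were 1.27, 0.77, 1.16, 1.76, 1.66 and 1.10 (SE 0.15, 0.15, 0.17, 0.15, 0.15 and 0.15), and all passed. At 24 h Ccng1 stood at 10.55, 10.89 and 10.73 in topotecan/D5W rats and 10.96, 10.40, 11.02 and 10.88 in D5W/topotecan rats. It was 11.77, 11.46, 12.29 and 11.78 in oxaliplatin/NaCl, 11.89, 12.06, 12.00 and 11.57 in NaCl/oxaliplatin, 11.19, 11.45, 11.59 and 11.54 in topotecan/oxaliplatin and 11.39, 11.44, 11.61 and 11.60 in oxaliplatin/topotecan rats. Vehicle rats stood at 10.15, 10.05, 10.20 and 10.20 (NaCl/D5W) and 10.32, 10.18 and 10.27 (D5W/NaCl), below all treated rats. Per treatment, 21.5% to 28.6% of all probe sets had every treated rat above every vehicle rat at this time. The log2 changes at 24 h were 0.57, 0.56, 1.57, 1.73, 1.29 and 1.25 (SE 0.16, 0.17, 0.17, 0.15, 0.15 and 0.17), and all passed. With 1 rat left out, the call of topotecan/D5W was lost without rat 6, 35 or 36 (0.49 to 0.57, limma adjusted p 0.0106 to 0.0236) and that of D5W/topotecan without rat 17, 18, 24, 89, 95 or 96 (0.49 to 0.59, limma adjusted p 0.0112 to 0.0269).

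After topotecan alone the induction of all 3 genes was transient, in that its size at 24 h was smaller than at 1 h. Differences between times were tested as differences of the changes from time-matched vehicle, so they share vehicle rats. From 1 to 24 h the Cdkn1a induction changed by -2.10 (SE 0.34) on the log2 scale in topotecan/D5W and -1.60 (SE 0.37) in D5W/topotecan (limma adjusted p = 4.54e-06 and 5.05e-04). The same difference for Mdm2 was -2.19 (SE 0.23) and -1.60 (SE 0.19), and for Ccng1 -1.54 (SE 0.21) and -1.13 (SE 0.23). All 6 passed, where 11.9% and 12.1% of all probe sets were lower at 24 h than at 1 h in these treatments. Part of the decline was seen by 6 h. From 1 to 6 h the induction of Mdm2 and Ccng1 fell in both treatments, by 1.24 and 0.62 for Mdm2 and by 0.84 and 0.92 for Ccng1, and that of Cdkn1a fell in topotecan/D5W, by 1.18 (background 10.5% and 13.9%). The mean log2 signal of Ccng1 at 1 and 6 h was 11.96 and 11.70 in D5W/topotecan rats, and 10.27 and 10.93 in D5W/NaCl rats. Most of that fall thus came from the vehicle rats. Cdkn1a of D5W/topotecan stood at -1.04 (limma adjusted p = 0.0159) and passed without rat 22, 86 or 91 (-1.24 to -1.17). The Cdkn1a call of topotecan/D5W was lost without rat 2, 3, 4 or 32 (-1.06 to -0.98, limma adjusted p 0.0140 to 0.0178), and the Mdm2 call of D5W/topotecan without any 1 of 8 of its 16 rats (limma adjusted p 0.0104 to 0.0235). With 1387391_at the Cdkn1a step from 1 to 6 h in topotecan/D5W was -0.50 (limma adjusted p = 0.514). In D5W/topotecan the induction it read was larger at 6 h than at 1 h. Its fall there from 1 to 24 h did not pass (-0.95, limma adjusted p = 0.114), while that from 6 to 24 h did (-1.84, limma adjusted p = 0.00559). Between 6 and 24 h the fall of Mdm2 passed, by 0.95 in topotecan/D5W and 0.99 in D5W/topotecan (background 6.10% and 5.60%). The call of topotecan/D5W was lost without rat 29 (-0.77, limma adjusted p = 0.0184). Cdkn1a of topotecan/D5W differed by a like amount, -0.92, and did not pass (limma adjusted p = 0.0423). Ccng1 of topotecan/D5W stood at -0.70 (limma adjusted p = 0.0131) and passed without rat 10 (-0.78, limma adjusted p = 0.00792).

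Oxaliplatin alone gave another course. In NaCl/oxaliplatin the induction from 1 to 24 h grew by 1.61 (SE 0.33) for Cdkn1a and 1.07 (SE 0.21) for Ccng1 (limma adjusted p = 9.73e-05 and 4.49e-05, background 20.8%). Most of the growth fell between 1 and 6 h, with 1.28 for Cdkn1a and 1.09 for Ccng1 (background 2.11%), and the Cdkn1a call of that step was lost without any 1 of 11 of its 16 rats (1.00 to 1.32, limma adjusted p 0.0105 to 0.0246). With 1387391_at the Cdkn1a growth was 1.16 from 1 to 24 h and 1.83 from 1 to 6 h. Neither passed (limma adjusted p = 0.0774 and 0.0261). Mdm2 of NaCl/oxaliplatin differed by 0.11 between 24 and 1 h (95% confidence interval -0.34 to 0.56, limma adjusted p = 0.68), and by -0.16 without rat 73 (limma adjusted p = 0.424). In oxaliplatin/NaCl, Cdkn1a stood 0.72 higher (95% confidence interval -0.02 to 1.46, limma adjusted p = 0.112) and Ccng1 0.29 higher (95% confidence interval -0.17 to 0.75, limma adjusted p = 0.313). Mdm2 of oxaliplatin/NaCl fell by 0.64 from 1 to 24 h (limma adjusted p = 0.00837, background 15.2%), a call lost without any 1 of 11 of its 15 rats (-0.67 to -0.54, limma adjusted p 0.0106 to 0.0285). Without the arrays of high muscle signal, a setting chosen after the data were seen, it was -0.44 (limma adjusted p = 0.117). None of the 3 genes passed between 6 and 1 h or between 24 and 6 h in oxaliplatin/NaCl (background 1.38% and 5.55%), or between 24 and 6 h in NaCl/oxaliplatin (background 19.1%). Without rat 47, Mdm2 of oxaliplatin/NaCl fell from 6 to 24 h by 0.72 (limma adjusted p = 0.00946).

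In the combinations the 3 genes parted. The Cdkn1a induction at 24 h differed from that at 1 h by 0.13 in topotecan/oxaliplatin (95% confidence interval -0.54 to 0.80) and -0.13 in oxaliplatin/topotecan (95% confidence interval -0.88 to 0.61), with limma adjusted p-values of 0.752 and 0.773. Mdm2 fell by 1.61 (SE 0.22) and 1.17 (SE 0.19) in the same treatments (limma adjusted p = 1.10e-07 and 4.06e-06, background 18.5% and 19.7%). Ccng1 fell by 0.75 in topotecan/oxaliplatin (limma adjusted p = 0.00197) and stood at -0.55 in oxaliplatin/topotecan (limma adjusted p = 0.0377). By step, Mdm2 fell from 1 to 6 h in topotecan/oxaliplatin, by 0.88, and from 6 to 24 h in both, by 0.72 and 0.77. The Ccng1 induction fell from 1 to 6 h in oxaliplatin/topotecan, by 0.71. The mean log2 signal of Ccng1 was 12.08 and 12.03 in these rats at 1 and 6 h, and 10.27 and 10.93 in D5W/NaCl rats. Most of this fall thus came from the vehicle rats. The backgrounds were 9.36% and 11.5% for the first step and 10.7% and 10.2% for the second. The call of Mdm2 for 6 to 24 h in topotecan/oxaliplatin (limma adjusted p = 0.00999) was lost without any 1 of 12 of 16 rats (-0.76 to -0.63, limma adjusted p 0.0117 to 0.0324), and that of Ccng1 for 1 to 6 h without any 1 of 11 of 16 (-0.74 to -0.48, limma adjusted p 0.0107 to 0.0422). Over all treatments and steps, 25 of 54 differences between times passed, 21 smaller and 4 larger.

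**Figure D2:**
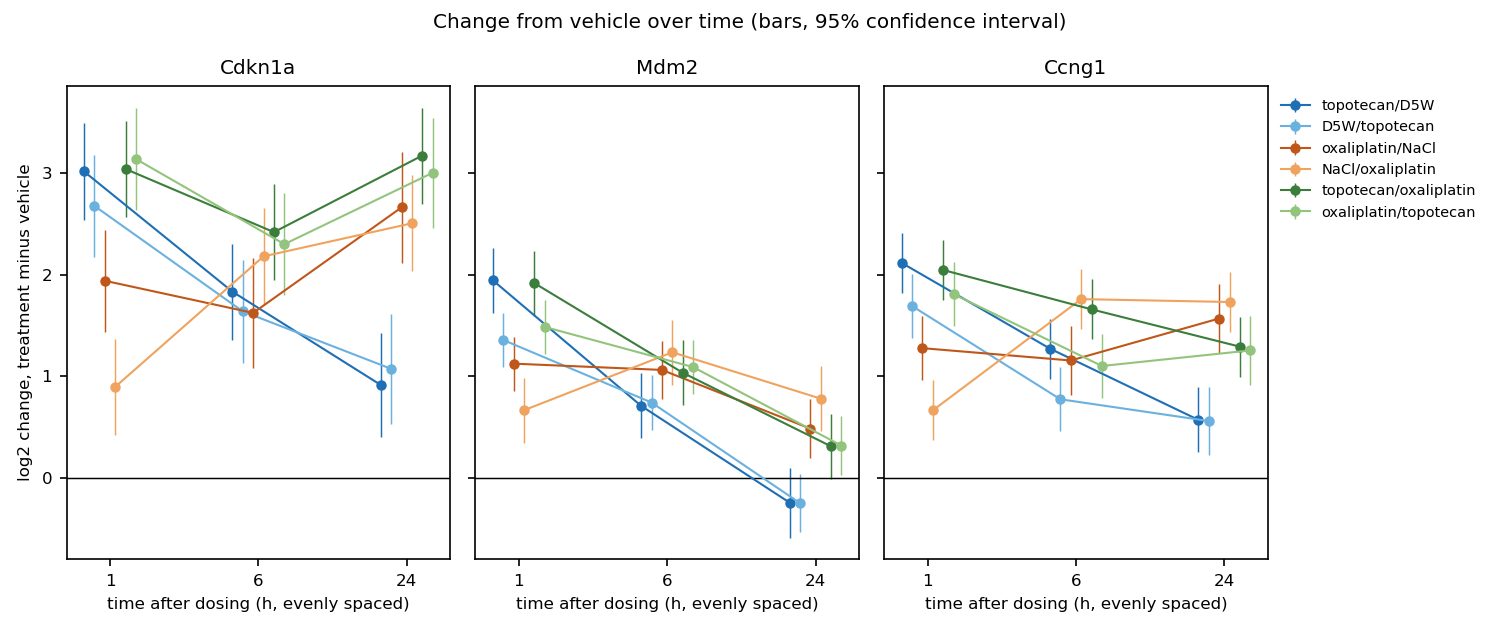
Log2 change from time-matched vehicle (vertical axis, with 95% confidence intervals as bars) of Cdkn1a, Mdm2 and Ccng1 against time after dosing (1, 6 and 24 h, evenly spaced) for the 6 treatments (lines). The topotecan lines fall for all 3 genes, the Cdkn1a lines of both combinations end near 3 as they began, and every Mdm2 line ends below 1.

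Topotecan and oxaliplatin alone were compared at their single doses, each as its change from its own vehicle group and in the same position of infusion. At 1 h topotecan gave the larger induction in all 6 comparisons, of which 5 passed. At 24 h oxaliplatin gave the larger induction in all 6, of which 5 passed. In fits of each time alone, the 1 h calls of Mdm2 in both positions and of Ccng1 given first were lost (limma adjusted p = 0.0220, 0.0450 and 0.0113), and with 1387391_at no Cdkn1a difference passed at either time. At 1 h the difference, topotecan minus oxaliplatin, was 1.08 for Cdkn1a given first (limma adjusted p = 0.0188, not past the threshold) and 1.78 given second (limma adjusted p = 4.57e-05). For Mdm2 it was 0.82 and 0.69 (limma adjusted p = 0.00216 and 0.00862), and for Ccng1 0.84 and 1.03 (limma adjusted p = 0.0025 and 1.41e-04). Of all probe sets, 1.92% and 4.89% were higher. The value of Mdm2 given second dropped to 0.41 (limma adjusted p = 0.0876) without rat 73 and its call was lost without any 1 of 9 of 16 rats, and that of Ccng1 given first was lost without rat 1 (0.74, limma adjusted p = 0.0115). At 6 h only Ccng1 given second passed, at -0.99 (limma adjusted p = 0.00113, backgrounds 2.91% given first and 2.63% given second), and not without rat 15 (-0.76, limma adjusted p = 0.0113).

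At 24 h the difference was -1.75 and -1.43 for Cdkn1a given first and second, -0.73 and -1.03 for Mdm2, and -0.997 and -1.17 for Ccng1. All but Mdm2 given first (limma adjusted p = 0.0218) passed, against 1.20% and 0.830% of all probe sets that were lower. The Cdkn1a value given second lost its call without any 1 of 10 of 15 rats (-1.48 to -1.25, limma adjusted p 0.0110 to 0.0298). Without the arrays of high muscle signal both Cdkn1a differences missed the threshold (-1.47 and -1.43, limma adjusted p = 0.0207 and 0.0101). The change of the difference from 1 to 24 h passed for every gene in both positions, at -2.82 and -3.21 for Cdkn1a, -1.55 and -1.72 for Mdm2, and -1.84 and -2.20 for Ccng1 (limma adjusted p 1.96e-07 to 5.97e-05, background 3.18% and 2.18%). With 1387391_at the Cdkn1a values were -2.52 and -2.11 and did not pass (limma adjusted p = 0.0107 and 0.0421).

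**Figure D3:**
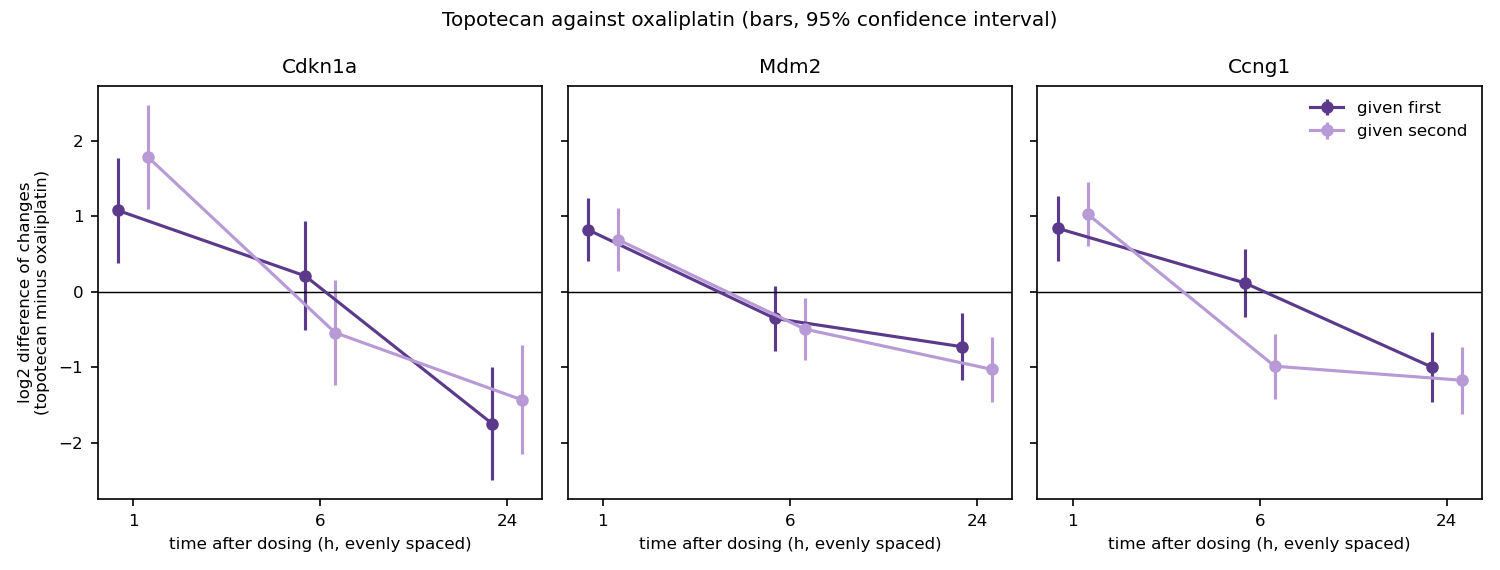
Difference between the log2 changes of topotecan and oxaliplatin alone (vertical axis, topotecan minus oxaliplatin, with 95% confidence intervals as bars) at 1, 6 and 24 h (evenly spaced), with the drug given first or second. For all 3 genes the points lie above 0 at 1 h and below 0 at 24 h.

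The combinations exceeded topotecan alone past the threshold in 6 of 6 comparisons at 24 h, and oxaliplatin alone in 5 of 6 at 1 h. At 24 h topotecan/oxaliplatin stood above topotecan/D5W by 2.26 (SE 0.25) for Cdkn1a, 0.55 (SE 0.17) for Mdm2 and 0.72 (SE 0.16) for Ccng1 (background 11.5%). The other order, oxaliplatin/topotecan, stood above D5W/topotecan by 1.93 (SE 0.25), 0.57 (SE 0.13) and 0.69 (SE 0.15) (background 1.47%). All 6 differences passed. That of Mdm2 in topotecan/oxaliplatin was lost without rat 29, 36, 53, 59 or 60 (0.37 to 0.62, limma adjusted p 0.0106 to 0.106), and that in oxaliplatin/topotecan without rat 90 (0.47, limma adjusted p = 0.0101). Neither Mdm2 difference passed with 1383485_at (0.59 and 0.50, limma adjusted p = 0.0160 and 0.0174). At 1 h topotecan/oxaliplatin stood above NaCl/oxaliplatin by 2.14, 1.25 and 1.38 for Cdkn1a, Mdm2 and Ccng1 (background 9.84%). In oxaliplatin/topotecan at 1 h the excess over oxaliplatin/NaCl passed for Cdkn1a (1.20) and Ccng1 (0.53, lost without rat 37, 44, 62, 67 or 68, at 0.44 to 0.55 and limma adjusted p 0.0112 to 0.0325) but not for Mdm2 (0.36, limma adjusted p = 0.029, background 3.89%). With 1383288_at and 1383485_at this Mdm2 difference passed (0.45 and 0.60, limma adjusted p = 4.40e-04 and 0.00267). It also passed after a second quantile normalization (0.42, limma adjusted p = 0.00555) and with the group of code columns as a block (0.36, limma adjusted p = 0.00468). That block does not separate treatment from code column, which differed between these treatments.

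Against the drug with the larger induction at each time, the combinations showed no difference past the threshold. At 1 h the difference from topotecan alone was 0.02 and 0.46 for Cdkn1a, -0.03 and 0.13 for Mdm2, and -0.07 and 0.12 for Ccng1 (background 0% and 0.239%). The widest of these intervals was that of Cdkn1a in oxaliplatin/topotecan, -0.04 to 0.96. At 24 h Cdkn1a in topotecan/oxaliplatin stood 0.67 above NaCl/oxaliplatin (95% confidence interval 0.19 to 1.14, limma adjusted p = 0.031), while Mdm2 and Ccng1 stood at -0.47 and -0.44 (limma adjusted p = 0.0241 and 0.0225). Without rat 84 the Ccng1 difference passed (-0.54, limma adjusted p = 0.00887). In oxaliplatin/topotecan the values against oxaliplatin/NaCl at 24 h were 0.34, -0.17 and -0.31 (backgrounds 15.9% and 5.93%). At 6 h 0 of 12 differences passed in limma and 7 had an unadjusted p under 0.05 (backgrounds 1.32%, 4.09%, 17.0% and 13.4%). In all, 11 of 36 differences were higher in the combination and 0 lower. Other settings added calls. Mdm2 in topotecan/oxaliplatin at 24 h was lower than in NaCl/oxaliplatin after a second quantile normalization (-0.47, limma adjusted p = 0.00911). The same held with the group of code columns as a block (-0.47, limma adjusted p = 0.00835). With 1387391_at Cdkn1a was higher in oxaliplatin/topotecan than in oxaliplatin/NaCl at 6 h (1.25, limma adjusted p = 0.00931).

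**Figure D4:**
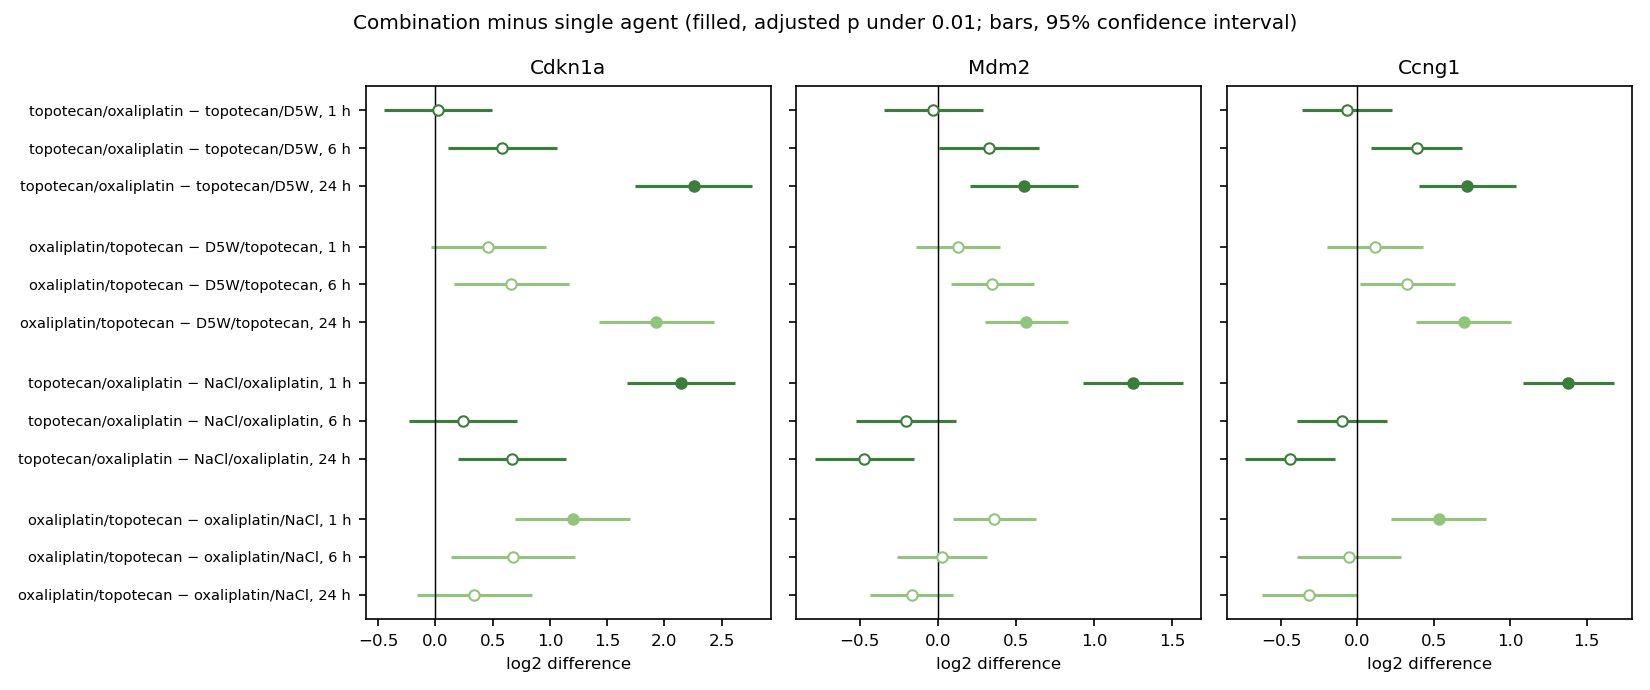
Difference between each combination and its single agents (horizontal axis, log2, with 95% confidence intervals as bars) for Cdkn1a, Mdm2 and Ccng1 at 1, 6 and 24 h, with filled points where the limma adjusted p was under 0.01. Horizontal scales differ between genes. Filled points lie at 24 h against topotecan alone and at 1 h against oxaliplatin alone.

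The order of infusion was tested as the change from vehicle with a drug first minus that with it second. A drug given first had been infused 1 h earlier relative to collection than a drug given second. For each single drug, rats given it first and second also had different code columns, so order and code column cannot be told apart. None of 27 differences passed in limma, and 8 had an unadjusted p under 0.05, of which 5 came from 1 h, 3 from 6 h and 0 from 24 h. The largest was that of oxaliplatin for Cdkn1a at 1 h, 1.04 higher when given first (95% confidence interval 0.35 to 1.74, limma adjusted p = 0.354), with rat 73 in the group given it second. Mdm2 stood 0.59 higher at 1 h with topotecan first (limma adjusted p = 0.033), and this passed with the group of code columns as a block (0.59, limma adjusted p = 0.00738) and after a second quantile normalization (0.64, limma adjusted p = 0.00731). Each group of code columns held rats of both orders, in different columns, so the block does not separate order from code column. At 24 h the differences for Cdkn1a were -0.16 for topotecan, 0.16 for oxaliplatin and 0.17 for the combination (topotecan first minus oxaliplatin first), with 95% confidence intervals of -0.91 to 0.59, -0.56 to 0.88 and -0.55 to 0.89. Of all probe sets 12.2% changed with the order of topotecan and 9.85% with that of the combination at 1 h, 0.00798% with that of the combination at 6 h, and 0% in the other comparisons of order.

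The sizes of the changes were also compared between the 3 genes within the same rats, as differences of log2 changes. The per-rat log2 difference between genes was compared between treated and vehicle rats by a two-sided exact permutation test, whose smallest p here is 0.0286 (0.0468 after Benjamini-Hochberg adjustment over the 54 tests). The change of Cdkn1a was above that of Mdm2 in 18 of 18 comparisons, by 0.23 to 1.65 at 1 h, 0.56 to 1.38 at 6 h and 1.16 to 2.86 at 24 h, and 13 reached that smallest p. Ccng1 and Mdm2 differed by -0.00 to 0.33 at 1 h and 0.01 to 0.62 at 6 h, where 1 and 3 of 6 reached an adjusted p under 0.05. At 24 h the change of Ccng1 exceeded that of Mdm2 by 0.81 to 1.08, and all 6 treatments reached it. The change of Cdkn1a was above that of Ccng1 in 18 of 18, by 0.23 to 1.33, 0.42 to 1.20 and 0.34 to 1.88 at 1, 6 and 24 h, with 10 under an adjusted p of 0.05. These sizes are as read by 1 probe set per gene. With 1387391_at the Cdkn1a change at 1 h was below those of Mdm2 and Ccng1 in D5W/topotecan, oxaliplatin/NaCl and NaCl/oxaliplatin. At 24 h it was below that of Ccng1 after either drug alone, as in topotecan/D5W with 0.38 against 0.57. Otherwise it was above, and these differences were not tested.

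The other probe sets of Cdkn1a and Mdm2 gave the same directions at 1 and 6 h. For Cdkn1a, 1387391_at was dim (percentile 7.81 of the mean signals of all probe sets), and its log2 changes were 2.28, 1.34, 0.90, 0.44, 2.51 and 2.22 at 1 h, 1.78, 2.23, 1.82, 2.27, 2.51 and 3.08 at 6 h and 0.38, 0.39, 1.53, 1.60, 2.30 and 1.71 at 24 h. It passed in 4, 6 and 4 treatments at the 3 times. The lowest values at 24 h were again those of topotecan alone, while the 6 h values were above those of 1388674_at in 5 of 6 treatments. The Mdm2 probe sets followed each other over the 93 arrays (r of 0.97 to 0.99). At 24 h 1383288_at gave -0.08, -0.11, 0.51, 0.61, 0.45 and 0.44, with both combinations and both oxaliplatin treatments past the threshold, and 1383485_at gave -0.27, -0.18, 0.61, 0.78, 0.33 and 0.32, with only oxaliplatin alone past it.

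Of 36 other p53 targets, from lists chosen with earlier results of these data known, 22 had a probe set of 1 symbol and were analysed. At 1 h 15, 10, 8, 3, 14 and 11 of the 22 rose in the 6 treatments and 0, 1, 0, 0, 1 and 2 fell, beside 9.18%, 7.67%, 0.575%, 0.136%, 9.77% and 7.21% of all probe sets that rose and 26.0%, 19.5%, 0.654%, 0.0239%, 32.9% and 27.6% that fell. At 6 h 8, 7, 6, 8, 9 and 10 rose, and at 24 h 4, 5, 8, 10, 10 and 9, with 3, 5, 1, 1, 2 and 2 lower at 6 h and 6, 5, 4, 5, 6 and 4 lower at 24 h. Of all probe sets 15.1%, 14.1%, 3.78%, 5.54%, 17.0% and 14.2% were higher and 25.6%, 20.4%, 7.25%, 9.69%, 27.6% and 27.5% lower at 6 h, and 16.1%, 18.1%, 19.6%, 24.9%, 25.9% and 21.8% higher and 17.3%, 18.3%, 26.4%, 30.2%, 35.2% and 33.3% lower at 24 h. The shares of targets that rose after topotecan alone at 24 h were thus near those of all probe sets. The median change of the 22 was 0.23 to 0.68 at 1 h and 0.06 to 0.31 at 24 h, where the median of all probe sets was -0.14 to -0.01 and -0.11 to 0.03. Gdf15, a stress cytokine, rose in every treatment at every time, by 4.32, 3.99, 3.04, 2.31, 4.88 and 4.48 at 1 h and 1.51, 1.33, 3.04, 3.66, 2.42 and 1.84 at 24 h. Aen, a nuclease of apoptosis, rose by 2.78, 2.55, 2.00, 1.14, 2.79 and 2.49 at 1 h and stood at 0.67, 0.62, 2.05, 2.04, 1.38 and 1.27 at 24 h. Phlda3, a repressor of Akt, stood at 2.31, 2.58, 1.65, 0.71, 2.35 and 2.54 at 1 h and rose by 0.79, 1.70, 2.18, 2.06, 2.61 and 2.47 at 24 h. The cell death gene Bbc3 rose in 5 treatments at 1 h and, at 24 h, in the 4 with oxaliplatin (0.15, 0.24, 1.01, 1.04, 1.04 and 1.02). Plk2, a stress-induced kinase, rose in 6, 6 and 4 treatments at the 3 times. Some targets were lower at 24 h. Pcna, the sliding clamp of DNA replication, fell in all 6 treatments at 24 h (-0.97 to -0.51), as did the DNA damage sensor Ddb2 (-0.85 to -0.60), and Gadd45a, a stress gene, rose in 4 treatments at 1 h and fell in 5 at 24 h.

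**Figure D5:**
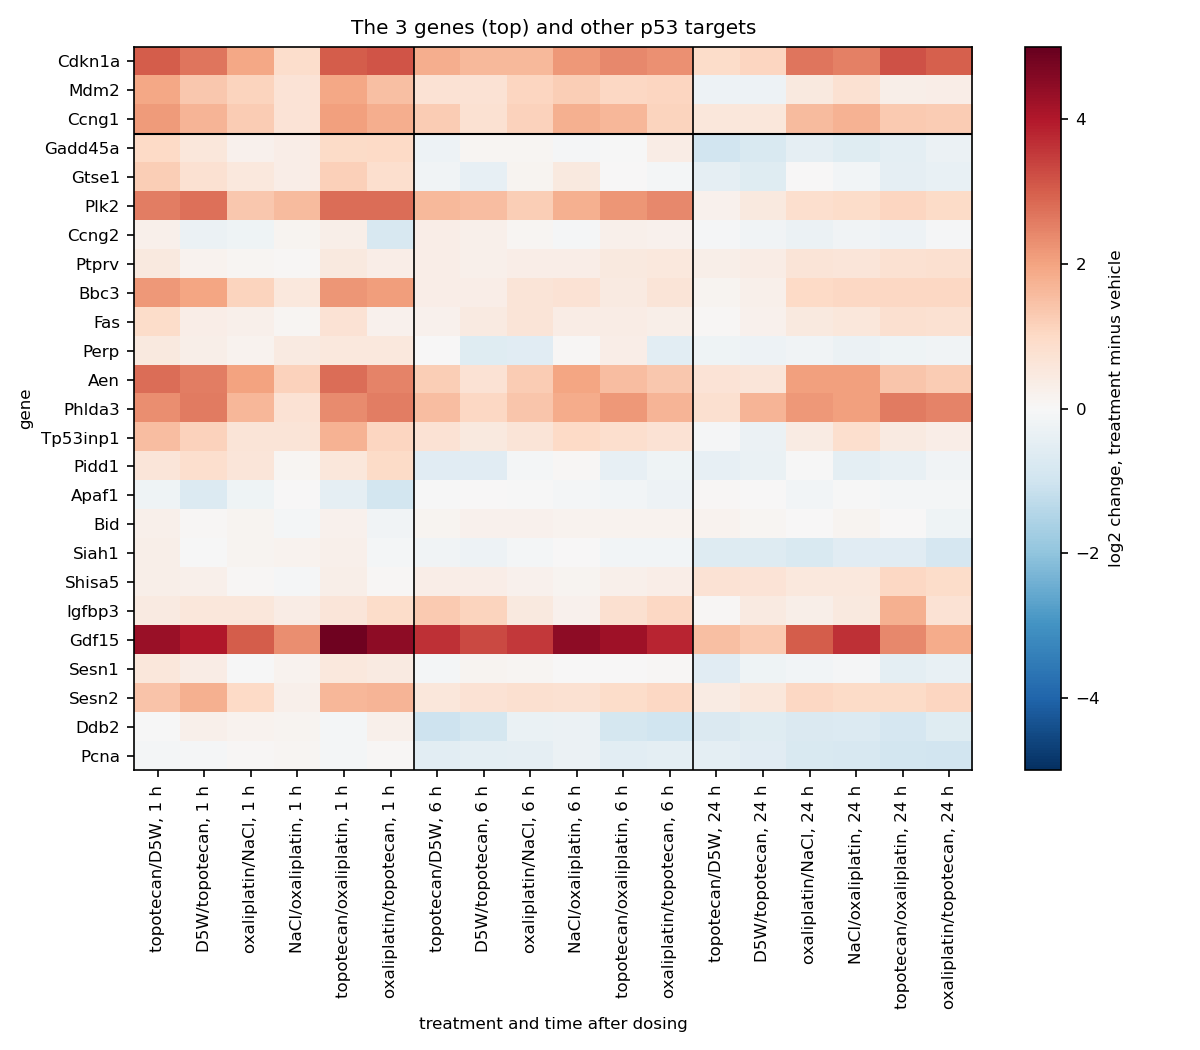
Log2 change from vehicle (colour, red higher and blue lower) of Cdkn1a, Mdm2 and Ccng1 (above the line) and of 22 other p53 targets (rows) in the 6 treatments at 1, 6 and 24 h (columns). Gdf15, Aen, Phlda3, Plk2 and Sesn2 are red in most columns, and Pcna and Ddb2 turn blue at 24 h.

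Genes around the 3 members in the pathway were counted in the same fits. Per treatment, 0.136% to 9.77% of all probe sets rose and 0.0239% to 32.9% fell at 1 h. At 6 h 3.78% to 17.0% rose and 7.25% to 27.6% fell, and at 24 h 16.1% to 25.9% rose and 17.3% to 35.2% fell. Among 9 regulators of p53 analysed, Ppm1d, a phosphatase that is itself a p53 target and damps p53, rose in 4 treatments at 1 h (0.65, 0.42, 0.32, 0.31, 0.68 and 0.40) and fell in all 6 at 24 h (-0.93, -0.97, -0.66, -0.70, -1.06 and -0.98). The checkpoint kinases Chek1 and Chek2 fell in all 6 treatments at 24 h, at -1.66 to -0.48 and -1.87 to -0.69, as did the deubiquitinase Usp7 (-1.67 to -0.71) and the ubiquitin ligases Rchy1 and Rfwd3. Ei24, a p53-induced gene, rose in 5, 3 and 4 treatments at 1, 6 and 24 h (0.23 to 0.56 at 24 h), and the ubiquitin ligase Cop1 fell in 4 at 1 h (-0.90 to -0.00 over the 6) and rose in 4 at 24 h (0.13 to 0.35). Mdm4, the partner of Mdm2, passed in 0 of 18 comparisons, with -1.31 to -0.04 at 1 h. Of the 5 other inhibitors of cyclin-dependent kinases, Cdkn1c rose in all 6 treatments at 24 h (0.77, 1.32, 1.38, 1.31, 1.58 and 1.54), while Cdkn2c and Cdkn3 fell in all 6 (-1.81 to -0.89 and -2.13 to -0.98). Cdkn1b fell in 4 treatments and Cdkn2d in 4. Most of the cyclin-dependent kinases and cyclins analysed were lower at 24 h, and the part of p21 in this was not tested. Of 11 analysed, 7 to 9 fell per treatment, among them Ccne1 (-2.56 to -1.87), Ccna2 (-2.67 to -1.22), Ccnb1 (-2.86 to -1.08), Cdk1 (-2.24 to -0.83) and Cdk2 (-1.56 to -0.73), against 17.3% to 35.2% of all probe sets that fell at 24 h. Ccnd1, cyclin D1, rose in all 6, by 1.94 to 2.84, Ccnd2 rose in 1 and fell in 0, and Cdk4 fell in 3. Of 11 partners and relatives of cyclin G1, the phosphatase subunit Ppp2r5b fell in 6 treatments at 24 h (-0.96 to -0.61), and Ccng2, the gene of cyclin G2, passed only in oxaliplatin/topotecan at 1 h (-0.79).

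Likeness of pattern was measured as the Pearson correlation of the 24 group means with each gene of 1 symbol, as a description with no test, since all share arrays. For Cdkn1a the 5 most alike were Phlda3, Sesn2, Ier5, Myd88 and Cd69 (r of 0.92 to 0.97). For Mdm2 they were Tp53inp1, Aen, Mok, Gdf15 and Trib3 (r of 0.90 to 0.97), and for Ccng1 Gdf15, Aen, Tvp23b, Tp53inp1 and Cdkn1a (r of 0.91 to 0.96). Ccng1 ranked 11th for Cdkn1a and 9th for Mdm2, whereas Mdm2 ranked 137th for Cdkn1a (r of 0.75).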

How the data were processed

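Marrow RNA was measured on Affymetrix rat expression arrays, 1 per rat, 93 in all. The deposited values are log2 signals that the authors made by robust multi-array averaging (RMA, with background correction, quantile normalization over all arrays and median polish), after which probe sets with inconsistent probes were filtered out. Quantile normalization makes every value relative to the other signals on its array. Of 12560 probe sets, 28 controls were left out, 10002 carried 1 symbol, 292 several and 2238 none.

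The values were fitted in limma 3.58.1 (R 4.3.3), in 2 fits for comparisons with vehicle, times and combinations, 1 for each vehicle group, and in 1 fit of all arrays for drug, order and vehicle comparisons. The fits were tested on simulated data. Intervals are 95%. Other genes named are members of pathway and marker lists, or the 5 most like each gene. The 3 genes and the lists were chosen with earlier results of these data known. Alternatives were a second normalization, other probe sets, fits, variance priors, filters, thresholds and vehicle groups, groups of sample code columns as a block or alone, each rat left out, and arrays with muscle signal left out. Each group of code columns held several columns and rats of every treatment and time. The block therefore does not separate single columns from treatment. The labels number rats, not cultures or litters, so p-values set differences against the spread between these rats, which limma pools over the groups of a fit.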

Additional observations from a re-analysis of the deposited data

Results flagged for a closer look

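Of 63 groups of 4 rats examined over the 3 genes, 3 held a rat far from the rest by Dixon's criterion, which chance alone meets in about 1 in 20 groups. Mdm2 stood at 10.14 in rat 73 of NaCl/oxaliplatin at 1 h, where the others had 11.17 to 11.30, and at 11.98 in rat 49 of topotecan/oxaliplatin at 1 h, where the others had 12.26 to 12.32. Ccng1 stood at 10.53 in rat 10 of NaCl/D5W at 6 h, where the others had 10.21 to 10.25.

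The following differences of log2 changes between times or between drugs passed in limma, each by a test of the difference itself. Between 6 h and 1 h the induction of Cdkn1a differed by -1.18 in topotecan/D5W and 1.28 in NaCl/oxaliplatin. Between 24 h and 1 h the induction of Cdkn1a differed by -2.10 in topotecan/D5W, -1.60 in D5W/topotecan and 1.61 in NaCl/oxaliplatin. The difference between the drugs for Cdkn1a, topotecan minus oxaliplatin, was -1.75 given first at 24 h, -2.82 given first as the change of the difference between 1 and 24 h, 1.78 given second at 1 h, -1.43 given second at 24 h and -3.21 given second as the change of the difference between 1 and 24 h.

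Between 6 h and 1 h the induction of Mdm2 differed by -1.24 in topotecan/D5W, -0.62 in D5W/topotecan and -0.88 in topotecan/oxaliplatin. Between 24 h and 6 h the induction of Mdm2 differed by -0.95 in topotecan/D5W, -0.99 in D5W/topotecan, -0.72 in topotecan/oxaliplatin and -0.77 in oxaliplatin/topotecan. Between 24 h and 1 h the induction of Mdm2 differed by -2.19 in topotecan/D5W, -1.60 in D5W/topotecan, -0.64 in oxaliplatin/NaCl, -1.61 in topotecan/oxaliplatin and -1.17 in oxaliplatin/topotecan. The difference between the drugs for Mdm2, topotecan minus oxaliplatin, was 0.82 given first at 1 h, -1.55 given first as the change of the difference between 1 and 24 h, 0.69 given second at 1 h, -1.03 given second at 24 h and -1.72 given second as the change of the difference between 1 and 24 h.

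Between 6 h and 1 h the induction of Ccng1 differed by -0.84 in topotecan/D5W, -0.92 in D5W/topotecan, 1.09 in NaCl/oxaliplatin and -0.71 in oxaliplatin/topotecan. Between 24 h and 1 h the induction of Ccng1 differed by -1.54 in topotecan/D5W, -1.13 in D5W/topotecan, 1.07 in NaCl/oxaliplatin and -0.75 in topotecan/oxaliplatin. The difference between the drugs for Ccng1, topotecan minus oxaliplatin, was 0.84 given first at 1 h, -0.997 given first at 24 h, -1.84 given first as the change of the difference between 1 and 24 h, 1.03 given second at 1 h, -0.99 given second at 6 h, -1.17 given second at 24 h and -2.20 given second as the change of the difference between 1 and 24 h.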

How the results depend on the processing

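Of 1488 values recomputed under other settings, 1403 kept their side of the threshold, 52 lost and 33 gained a call. Of these, 0 changed direction where either value passed. A change of sign between values that both missed the threshold was counted as kept. With 1 rat left out, 2296 of 2409 kept their side by the same rule, 104 lost and 9 gained a call. Again 0 changed direction where either value passed, though some values that missed the threshold changed sign. No paired analysis was possible because each rat gave 1 array and no rat was shared between groups. The cause of the following shifts was not tested. The number of rats, 3 or 4 per group, limits all calls, and a missed threshold does not show equal values.

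The counts that moved by more than 1.5 times were these, and smaller shifts are not listed. In a fit of all arrays at once, or of each time alone for drug and order, topotecan stood above oxaliplatin in 0 comparisons for Mdm2 and 1 for Ccng1 (2 each in the fit reported). After a second quantile normalization the growth of Cdkn1a from 1 to 6 h passed in 0 treatments (1 as reported), Mdm2 stood lower after topotecan than oxaliplatin in 2 comparisons (1 as reported) and with order in 1 (0 as reported), and Ccng1 fell from 6 to 24 h in 1 treatment (0 as reported). With 1387391_at for Cdkn1a, 0 treatments grew from 1 to 6 h, 0 grew from 1 to 24 h, 0 fell from 1 to 6 h, 1 fell from 6 to 24 h and 1 fell from 1 to 24 h, and topotecan stood above oxaliplatin in 0 and below it in 0 comparisons. With 1383288_at, Mdm2 rose at 24 h in 4 treatments, fell from 6 to 24 h in 2 and was lower after topotecan in 2 comparisons, and with 1383485_at in 0. With the group of sample code columns as a block, Mdm2 was lower after topotecan in 2 comparisons and changed with order in 1, and Ccng1 fell from 6 to 24 h in 1. Within the first group of code columns, Mdm2 rose at 24 h in 1 treatment and Ccng1 at 6 h in 3, and within the second group Mdm2 rose at 24 h in 1. With a fold above 2 required, Mdm2 rose at 24 h in 0. Without the arrays of high muscle signal, a setting chosen after the data were seen, Cdkn1a grew from 1 to 6 h in 0 treatments and was lower after topotecan in 0 comparisons.

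With each rat left out in turn, the count for Cdkn1a was 0 to 1 for growth and 0 to 2 for decline from 1 to 6 h, and 1 to 2 for topotecan below oxaliplatin. For Mdm2 it was 1 to 2 for rises at 24 h, 1 to 2 for topotecan above and 1 to 2 for topotecan below oxaliplatin. For Ccng1 it was 0 to 1 for decline from 6 to 24 h and 1 to 2 for topotecan above oxaliplatin.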
